A study of Mus musculus with 4 samples.

Results

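The genes of the unfolded protein response and of the heat shock response were followed through the mediobasal hypothalamus, the base of the hypothalamus around the third ventricle that holds neurons controlling feeding and pituitary hormones. The 38 genes were taken by their symbols, and all 38 were among the 31053 gene rows of the deposited matrix. They comprise 14 chaperones and folding enzymes of the endoplasmic reticulum (ER), 7 stress sensors and transcription factors, 4 genes of ER-associated degradation, 11 genes of the cytosolic heat shock system and 2 subunits of the mitochondrial chaperonin. All mice were wild type and ate chow without restriction. They received saline or insulin before the tissue was dissected, and 2 libraries of each treatment were deposited. Nuclei were cleaned by flow sorting and profiled by droplet-based 3' sequencing of polyadenylated RNA. Dose, time after treatment, age and the number of mice in a library are not given in the sources used here. All p-values therefore rest on 4 libraries only. Fits of cell types and populations took out the differences common to a whole library, and their p-values measure the spread that remained. Those of the main insulin fits measure the spread between libraries of a treatment. The values are RNA in nuclei, not protein. Hspa5 lies at chr2:34771970-34777547, Ern1 at chr11:106394650-106487852, Eif2ak3 at chr6:70844515-70905245, Bag3 at chr7:128523616-128546981 and Hspb1 at chr5:135887919-135889563 (GRCm38).

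Secreted and membrane proteins fold in the ER. When unfolded protein builds up there, 3 membrane sensors respond: Ern1 (IRE1), which splices the message of the transcription factor Xbp1, Eif2ak3 (PERK), which slows translation and favours the factor Atf4, and Atf6, which is cut to release a factor of its own. Together these factors raise chaperones such as Hspa5 (BiP) and the machinery that removes misfolded protein, and after long stress they raise Ddit3 (CHOP). In the cytosol, Hsf1 raises the HSP70 and HSP90 chaperones and their partners. Neurons that secrete much peptide, such as the vasopressin and oxytocin neurons, are known for an extensive ER.

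The 4 libraries held 8352 to 9796 annotated nuclei and 63590421 to 71391593 unique molecular identifiers (UMIs), with medians of 5472 to 6860 UMIs per nucleus. Each sequencing run, 230 and 232, held 1 Saline and 1 Insulin library, and run coincided with sex: the Saline and Insulin levels of Xist, in UMIs per 1000000 of the library (CPM), were 4.53 and 4.88 in run 230 but 1614 and 1713 in run 232. The library Saline run 230 stood apart. It had the lowest level of the 4 libraries for 29 of 38 genes in all nuclei, and its sum over 79 cytosolic ribosomal protein genes was 1033 CPM, against 1485 CPM in Insulin run 230, 2575 CPM in Saline run 232 and 2285 CPM in Insulin run 232. A total of 318 barcode sequences occurred in more than 1 library, 179 of them in both libraries of run 230. The annotation of 8 cell types was checked against markers. Neurons, oligodendrocytes (Oligo), their precursors (OPC) and microglia (Micro) were highest for all of their markers, and astrocytes (Astro) for 4 of 5. Ependymal-type cells (Ependymo) were highest for 4 of 6. The nuclei labelled Endothelial went against their label: none of 5 endothelial markers was highest there, and Cldn5 stood at 1.69 CPM against 538 CPM in the nuclei labelled Mural Cell. The latter were highest for all 5 endothelial and all 5 mural markers. Rax and Col23a1, listed as markers of ependymal-type cells, were highest in the nuclei labelled Endothelial. Both groups are therefore called by their labels only.

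Some of the genes share letters at their promoters. Windows from RefSeq (GRCm38.p6), reaching from 250 bases before to 50 bases after a transcription start, were found for 31 of the 38 genes and searched on both strands. The others are Atf6, Manf, Hyou1, Hspa8, Hsp90aa1, Hsp90ab1 and Hsf1. The ER stress element, CCAAT followed after 9 bases by CCACG, was in the window of 8 of the 31 genes and in 0.119% of all 32851 windows. The 8 genes encode luminal chaperones and folding enzymes (Hspa5, Hsp90b1, Calr, Creld2, Dnajc3 and Pdia6), the membrane chaperone Canx and the ubiquitin ligase Syvn1. Their elements are shown because the letters between the fixed ends differ from gene to gene. Capitals mark the fixed letters, each element is read in the direction of the motif, and Hsp90b1 holds a pair:
Hspa5: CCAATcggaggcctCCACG
Hsp90b1, farther from the start: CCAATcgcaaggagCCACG
Hsp90b1, nearer to the start: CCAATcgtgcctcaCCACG
Calr: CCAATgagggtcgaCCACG
Canx: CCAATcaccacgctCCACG
Creld2: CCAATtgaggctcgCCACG
Dnajc3: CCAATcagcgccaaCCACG
Pdia6: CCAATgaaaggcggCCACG
Syvn1: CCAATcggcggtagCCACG
The elements began between 44 bases (Syvn1) and 212 bases (Hsp90b1) before the start. The 250 bases before the RefSeq start are given for the 2 most studied of these genes, with the elements in capitals. The Hspa5 stretch is chr2:34771840-34772089, plus strand, and that of Hsp90b1 is chr10:86705445-86705694, minus strand:
Hspa5: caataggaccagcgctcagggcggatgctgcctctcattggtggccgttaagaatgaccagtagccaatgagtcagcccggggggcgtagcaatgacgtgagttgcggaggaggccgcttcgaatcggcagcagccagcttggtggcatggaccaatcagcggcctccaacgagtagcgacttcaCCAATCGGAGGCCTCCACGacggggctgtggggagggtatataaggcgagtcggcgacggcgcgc
Hsp90b1: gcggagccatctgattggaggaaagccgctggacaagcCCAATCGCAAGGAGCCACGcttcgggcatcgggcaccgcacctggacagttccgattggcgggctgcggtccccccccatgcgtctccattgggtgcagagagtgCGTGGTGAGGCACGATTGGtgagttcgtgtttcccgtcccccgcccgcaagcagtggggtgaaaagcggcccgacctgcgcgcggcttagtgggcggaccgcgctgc
In the Hsp90b1 stretch the second capital run is the element on the other strand. These stretches are placed by the RefSeq starts. The GRCm38 gene model that gives the coordinates at the opening begins earlier for Hspa5, at 34771970, so its span takes in part of the stretch with the element, and that of Hsp90b1 ends at 86705509, inside its stretch but short of both elements.

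Heat shock elements, searched as GAANNTTC or TTCNNGAA, were in the windows of 9 of the 31 genes and in 15.1% of all windows. They were found at Hspa1a, Hspa1b, Hsph1, Dnaja1, Hspb1, Bag3, Hspd1, Hspe1 and at the sensor Eif2ak3. Hspd1 and Hspe1 lie head to head. The elements they share lie between the Hspe1 start and the RefSeq start of Hspd1 with the window chr1:55087883-55088182. The window of a further Hspd1 start, chr1:55088194-55088493, held none of the searched elements. Hspb1 and Bag3 are shown because their levels differed widely between cell types. Capitals mark the elements in chr5:135887669-135887918 (Hspb1, plus strand) and in chr7:128523603-128523632 (Bag3, plus strand), where the element follows the start:
Hspb1: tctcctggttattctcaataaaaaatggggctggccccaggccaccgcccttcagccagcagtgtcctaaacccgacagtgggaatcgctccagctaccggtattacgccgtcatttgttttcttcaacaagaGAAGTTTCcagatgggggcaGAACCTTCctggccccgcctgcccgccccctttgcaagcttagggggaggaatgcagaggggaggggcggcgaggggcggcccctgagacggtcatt
Bag3: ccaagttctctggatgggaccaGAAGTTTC
The unfolded protein response element TGACGTGG was in none of the 31 windows (0.676% of all windows), and the amino acid response element TGATGNAA was in those of Herpud1 and Trib3 (3.97%). A match is a description of letters, and no match says only that these letters are not in the window.

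Levels were compared between the 8 cell types, each against the mean of the other types with the library as a block (edgeR quasi-likelihood test, Benjamini-Hochberg adjustment over 14597 genes, n = 4 libraries). Of the 38 genes, 35 could be tested. Hspa1a, Hspa1b and Trib3 had too few counts, and Hspa1a and Hspa1b are near-identical copies whose reads may be split. Over 280 pairs of gene and type, 61 were higher and 56 lower, and 59 and 55 without the nuclei of shared barcode sequence. Neurons had the most lower genes. In neurons 23 of the 35 genes were lower than in the other types, where 32.7% of all tested genes were lower, and 5 were higher, where 36.7% of all were. The median log2 difference of the 35 genes was -0.55 in neurons, against 0.02 over all genes. The reverse was seen in oligodendrocytes, with 15 higher (28.4% of all genes) and 2 lower (30.1%), and in the nuclei labelled Mural Cell, with 12 higher (17.9%) and 1 lower (15.6%). Their medians were 0.25 and 0.34, against -0.03 and -0.13 over all genes. Astrocytes had 13 higher (28.5%) and 6 lower (25.2%), with a median of 0.01 that equalled the median of all genes. Ribosomal protein RNA had the same ends as the medians of the 35 genes. Its sum was lowest in neurons (1594 CPM) and highest in the nuclei labelled Mural Cell (6824 CPM). Between the ends the order differed: astrocytes had 2344 CPM, below the nuclei labelled Endothelial (2639 CPM, median log2 -0.04). Median UMIs per nucleus were highest in neurons (8445) and lowest in the nuclei labelled Mural Cell (1919.5). The part of ribosomal protein RNA or of depth in these differences was not tested. Without the library block the higher counts were 7 in astrocytes and 9 in oligodendrocytes.

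**Figure D1:**
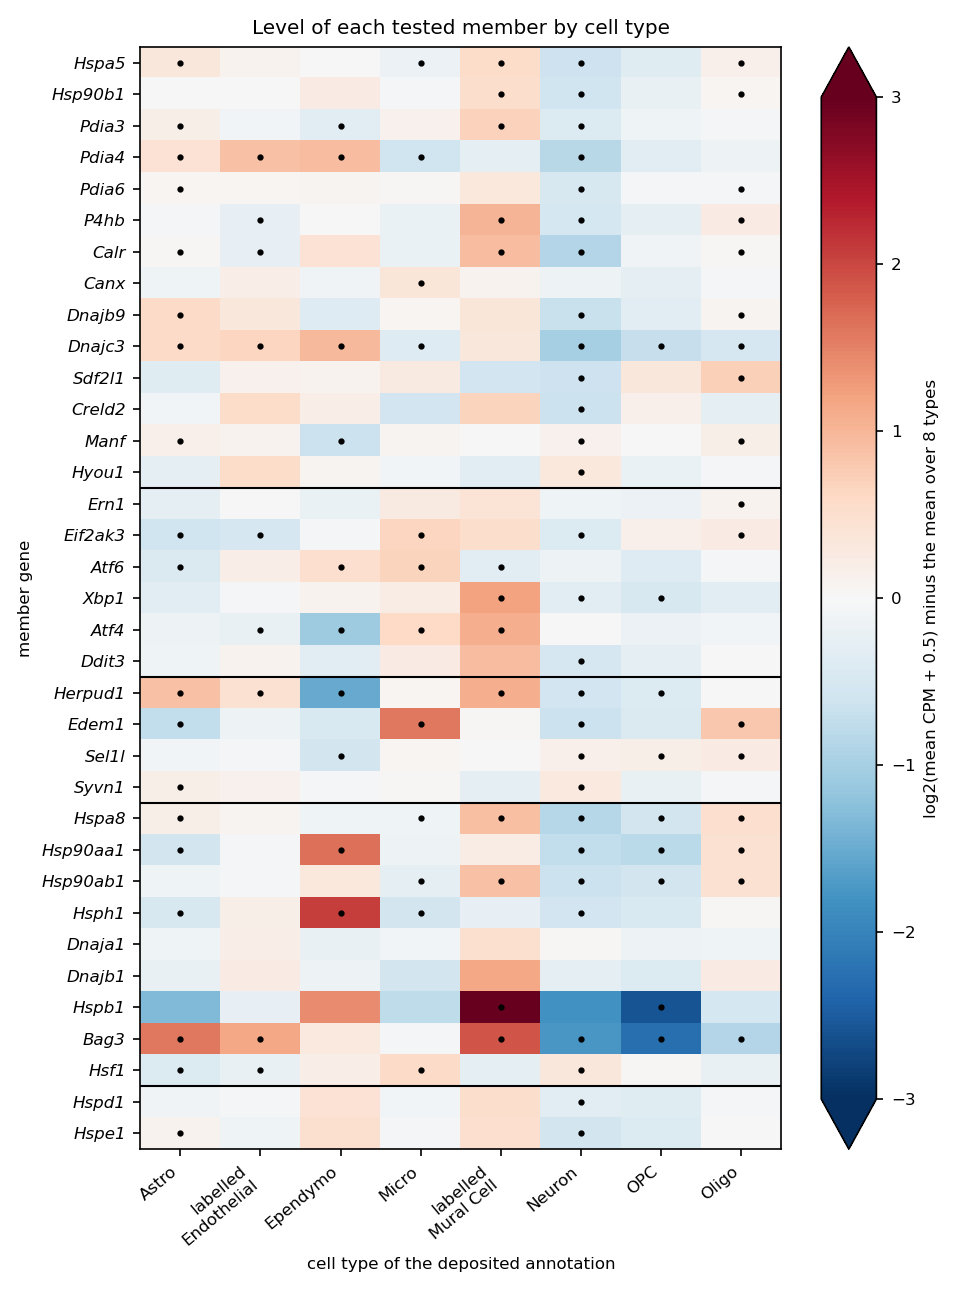
Level of each tested gene (rows, by role) in each cell type (columns), as colour: log2(mean CPM + 0.5) of 4 libraries minus the mean over 8 types, with dots where the edgeR adjusted p was under 0.05. The neuron column is mostly on the lower side (23 of 35 genes), and Hspb1 and Hsph1 stand out in single columns.

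Among the ER chaperones and folding enzymes, 11 of 14 were lower in neurons and 2 were higher. Hspa5 encodes BiP, the HSP70 of the ER lumen that holds the stress sensors inactive. In neurons it was at 44.3 CPM in Saline run 230, 87.2 in Saline run 232, 71.3 in Insulin run 230 and 98.5 in Insulin run 232. In astrocytes the same libraries had 89.2, 168, 150.5 and 177 CPM. Every library was thus higher in astrocytes than in neurons, and within each type Saline run 230 was lowest. The log2 difference of Hspa5 was -0.64 (SE 0.08, edgeR adjusted p = 8.48e-09) in neurons and 0.55 (SE 0.08, edgeR adjusted p = 1.24e-07) in astrocytes. Its mean level ran from 75.3 ± 23.5 CPM in neurons to 171 ± 70.2 CPM in the nuclei labelled Mural Cell (SD, n = 4), where the spread between libraries spanned the means of most other types.

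Dnajc3 (p58IPK), a cochaperone of BiP that also restrains PERK, was lower in neurons and higher in astrocytes and ependymal-type cells. Its 4 neuron values were 39.5 CPM (Saline run 230), 48.4 (Saline run 232), 40.8 (Insulin run 230) and 49.2 (Insulin run 232), and its mean was 134 ± 24.9 CPM in astrocytes, 140.3 ± 23.2 in nuclei labelled Endothelial and 176 ± 25.1 in ependymal-type cells. The log2 differences were -1.06 in neurons and 0.84, 0.62 and 0.97 in the other 3 types in that order, all past the threshold (largest edgeR adjusted p = 2.22e-07). OPC, at 55.5 ± 5.50 CPM, and microglia, at 68.5 ± 3.94 CPM, were also lower (log2 -0.62 and -0.54), as were oligodendrocytes (63.2 ± 13.99 CPM, log2 -0.34). Pdia4, a protein disulfide isomerase, had a like pattern, with 10.1 ± 1.30 CPM in neurons (log2 -0.92) and 33.9 ± 3.18 CPM in nuclei labelled Endothelial (log2 0.83). Dnajb9, the ER cochaperone that returns IRE1 to rest, was higher in astrocytes (38.6 ± 9.78 CPM, log2 0.81). Sdf2l1, a partner of BiP, was higher in oligodendrocytes (14.3 ± 3.92 CPM, log2 1.14, SE 0.22, edgeR adjusted p = 3.25e-05). In both of these cases Saline run 230 was far below the other 3 libraries.

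The calreticulin and calnexin pair, lectins that hold newly made glycoproteins, parted company. Calr was at 44.9 ± 10.3 CPM in neurons and 157.5 ± 41.3 CPM in nuclei labelled Mural Cell (log2 -0.90 and 0.81), whereas Canx passed the threshold only in microglia (153 ± 25.9 CPM, log2 0.29, SE 0.11, edgeR adjusted p = 0.0302). The 2 chaperones higher in neurons were Manf (117 ± 10.5 CPM, log2 0.22), a secreted ER protein with trophic activity that was also higher in oligodendrocytes (log2 0.42) and astrocytes (log2 0.32), and Hyou1 (12.9 ± 1.17 CPM, log2 0.39), the large HSP70-like exchange factor of the ER. Manf overlaps Dcaf1 on the opposite strand over 42681 bases and Rbm15b on the same strand over 6511 bases. Whether counting used strand is not given in the sources used here, so its level may hold reads of its neighbours. Ddit3 overlaps a further annotated entry of the same name on the same strand over 2925 bases. How its reads were assigned is not given in the sources used here. Hspa1a overlaps Gm20481 on the opposite strand over 2225 bases. Smaller overlaps hold for Dnaja1 with Smu1 (608 bases), Herpud1 with Gm15890 (535), Hspd1 with Hspe1 (112) and Ddit3 with Mars (68). Manf was lowest in ependymal-type cells (68.4 ± 9.20 CPM, log2 -0.87, SE 0.14, edgeR adjusted p = 3.63e-06).

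Of the 6 sensors and factors tested, none was higher in neurons and 3 were lower (Eif2ak3, Xbp1 and Ddit3, log2 -0.39, -0.24 and -0.57). Microglia had 3 higher and none lower, namely Atf6 (159.7 ± 60.5 CPM, log2 0.63), Eif2ak3 (49.4 ± 10.0 CPM, log2 0.64) and Atf4 (32.2 ± 11.6 CPM, log2 0.62). Their largest edgeR adjusted p was 0.0213, and Eif2ak3 missed the threshold without Insulin run 232 (log2 0.58). In microglia 6 of the 35 genes were higher (23.1% of all genes) and 6 lower (11.7%). Xbp1 was highest in nuclei labelled Mural Cell, at 95.6 CPM (Saline run 230), 118 (Saline run 232), 87.0 (Insulin run 230) and 95.7 (Insulin run 232). No other type had a mean above 50.1 ± 16.4 CPM, and the log2 difference was 1.17 (SE 0.18, edgeR adjusted p = 2.13e-06). Ern1 varied little across types, from 33.3 ± 3.50 CPM in astrocytes to 54.4 ± 18.1 CPM in nuclei labelled Mural Cell, and passed the threshold only in oligodendrocytes (44.6 ± 11.2 CPM, log2 0.36, SE 0.13, edgeR adjusted p = 0.0144). Trib3, a target of CHOP that was not tested, stayed at or below 3.23 ± 2.54 CPM in every type.

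ER-associated degradation split by gene and by type. Herpud1, which organises the degradation complex at the membrane, was at 84.7 CPM in Saline run 230, 112 in Saline run 232, 108 in Insulin run 230 and 137 in Insulin run 232 in astrocytes. In ependymal-type cells it was at 14.6, 25.4, 11.6 and 31.7 CPM in the same order. The 2 ranges did not overlap, and the log2 differences were 1.13 (SE 0.08, edgeR adjusted p = 6.95e-14) and -1.56 (SE 0.21, edgeR adjusted p = 1.11e-07). Edem1, which picks out misfolded glycoproteins by trimming their mannose, was highest in microglia: 45.1 CPM in Saline run 230, 61.7 in Saline run 232, 88.9 in Insulin run 230 and 40.05 in Insulin run 232 (log2 1.69, SE 0.21, edgeR adjusted p = 3.21e-08). Oligodendrocytes came next at 33.9 ± 3.65 CPM (log2 1.15), and all microglial libraries exceeded that mean. Sel1l and Syvn1, the core of the ubiquitin ligase complex that exports misfolded proteins, were the 2 members of this group that were higher in neurons (log2 0.23 and 0.39).

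Of the 9 heat shock genes tested, 5 were lower in neurons and 1, the transcription factor Hsf1, was higher (39.2 ± 3.46 CPM, log2 0.46, SE 0.07, edgeR adjusted p = 1.23e-06). OPC had 5 lower and none higher. Over all 35 genes, OPC had 8 lower (15.6% of all genes) and 1 higher (24.2%). Hspa8, the constitutive HSP70, was at 67.4 CPM in neurons of Saline run 230, 168 in Saline run 232, 124 in Insulin run 230 and 145 in Insulin run 232. Oligodendrocytes averaged 324 ± 110.1 CPM and the nuclei labelled Mural Cell 433 ± 162.5 CPM. The log2 differences of the 3 types were -0.91, 0.79 and 0.78. The HSP90 gene Hsp90ab1 gave the same 3 calls, at 133 ± 60.7, 289 ± 151 and 386 ± 176 CPM (log2 -0.63, 0.75 and 0.77). Both genes were lowest in Saline run 230 in each of these 3 types.

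Bag3, the cochaperone that hands HSP70 clients to autophagy, had one of the widest ranges between types. Astrocytes held 25.4 CPM in Saline run 230, 26.4 in Saline run 232, 31.04 in Insulin run 230 and 27.8 in Insulin run 232, and neurons held 1.69, 2.02, 2.47 and 3.06 CPM. The lowest astrocyte library was thus above every neuron library. The log2 difference was 2.05 (SE 0.17, edgeR adjusted p = 1.91e-12) in astrocytes, -2.14 (SE 0.23, edgeR adjusted p = 2.58e-10) in neurons and -2.57 (SE 0.45, edgeR adjusted p = 1.85e-05) in OPC. Nuclei labelled Mural Cell had 34.2 ± 23.5 CPM (log2 2.01), but their libraries ran from 6.22 to 63.8 CPM. Nuclei labelled Endothelial had 20.4 ± 2.50 CPM (log2 1.21). Over all 35 genes, the nuclei labelled Endothelial had 4 higher (22.0% of all genes) and 5 lower (18.8%).

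Hspb1, the small heat shock protein HSP27, was found chiefly in the nuclei labelled Mural Cell among the 8 types. Its libraries had 106 CPM (Saline run 230), 233 (Saline run 232), 211 (Insulin run 230) and 157 (Insulin run 232), from 171 UMIs. The next type, ependymal-type cells, had 7.54 ± 10.7 CPM, so that the mean in the nuclei labelled Mural Cell was 23.4 times as high. No UMI was seen among 5314771 in OPC, which allows up to 0.564 CPM for counting error alone (3 counts over the 4 libraries). Neurons had 0.367 ± 0.128 CPM. Of the 934 Hspb1 UMIs in all nuclei, 640 lay in the 1539 nuclei annotated as doublets or unassigned, which enter none of the 8 types.

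Ependymal-type cells were marked by the HSP110 and HSP90 genes. Hsph1, an exchange factor of HSP70, was at 127 CPM in Saline run 230, 175 in Saline run 232, 162 in Insulin run 230 and 228 in Insulin run 232, and no other type exceeded 45.6 ± 9.06 CPM (log2 2.42, SE 0.15, edgeR adjusted p = 8.75e-16). Hsp90aa1, the inducible HSP90, was at 156, 152, 359 and 161 CPM in the same order (log2 1.53, SE 0.18, edgeR adjusted p = 5.77e-09). The high value came from Insulin run 230, which held only 16 of the 274 ependymal-type nuclei. Across the 35 genes, 5 were higher (20.5% of all genes) and 5 lower (20.3%) in these cells, with Atf4 among the lower (log2 -1.23, and -1.21 without Insulin run 232, where it missed the threshold). The mitochondrial chaperonin, Hspd1 with its lid Hspe1, was lower in neurons for both genes (log2 -0.29 and -0.50), and Hspe1 was higher in astrocytes (log2 0.34).

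Of the 8 genes with an ER stress element, 6 were lower and 1 higher in neurons (32.7% and 36.7% of all genes), and 5 were higher and none lower in astrocytes (28.5% and 25.2%). Of the 7 tested genes with a heat shock element, 5 were lower and none higher in neurons.

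Counts of other genes of these pathways stand against the same shares of all genes, 36.7% higher and 32.7% lower in neurons and 28.4% and 30.1% in oligodendrocytes. Of 7 tested subunits of TRiC, the cytosolic chaperonin that folds actin and tubulin, 6 were lower and none higher in neurons, and 5 were higher and none lower in oligodendrocytes. Of 15 further genes of ER-associated degradation, 9 were lower and 2 higher in neurons, led by Selenos (26.5 ± 6.72 CPM, log2 -1.01). Of 15 further ER folding enzymes, 6 were higher and 6 lower in neurons. Pdia5 was the strongest of the higher ones (15.5 ± 1.19 CPM, log2 2.07, SE 0.18, edgeR adjusted p = 3.49e-12). Of 29 further heat shock proteins and cochaperones, 10 were higher and 11 lower in neurons. The small heat shock protein Cryab stood at 206 ± 45.9 CPM in oligodendrocytes, against at most 44.8 CPM in another type (log2 3.52). The endothelial HSP70 relative Hspa12b stood at 113 ± 29.2 CPM in nuclei labelled Mural Cell, against at most 9.63 CPM elsewhere (log2 5.47). Of 13 genes of the integrated stress response, the pathway that runs through Atf4, 8 were lower and 3 higher in neurons (median log2 -1.50). The cystine transporter Slc7a11 was highest in astrocytes, at 438 ± 41.7 CPM (log2 3.85).

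The neurons were then compared with each other across the 35 annotated populations with at least 10 nuclei in every library. The test was the same, over 13858 genes, and 34 of the 38 genes could be tested. Over all 1190 pairs of gene and population, 98 were higher and 116 lower, against 13.0% and 8.16% of all pairs of genes and populations. Without the nuclei of shared barcode sequence the counts were 99 and 117. A total of 33 populations had at least 1 of the genes called. The genes in the population names were highest in their own population for 30 of 36 names. Calls in 1 direction piled up in few populations. M26.Agrp had 21 higher and none lower, M24.Avp/Oxt 16 higher and none lower, and M8.Nr5a1 21 lower and none higher. M9.Fezf1 had 19 lower, M11.GLUT 17 lower and M7.Ust 11 lower, with none higher in any of the 3. Without the library block these counts were 13 in M26.Agrp, 11 in M8.Nr5a1, 5 in M9.Fezf1, 7 in M11.GLUT and 5 in M7.Ust, and over all pairs 61 were higher and 49 lower.

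**Figure D2:**
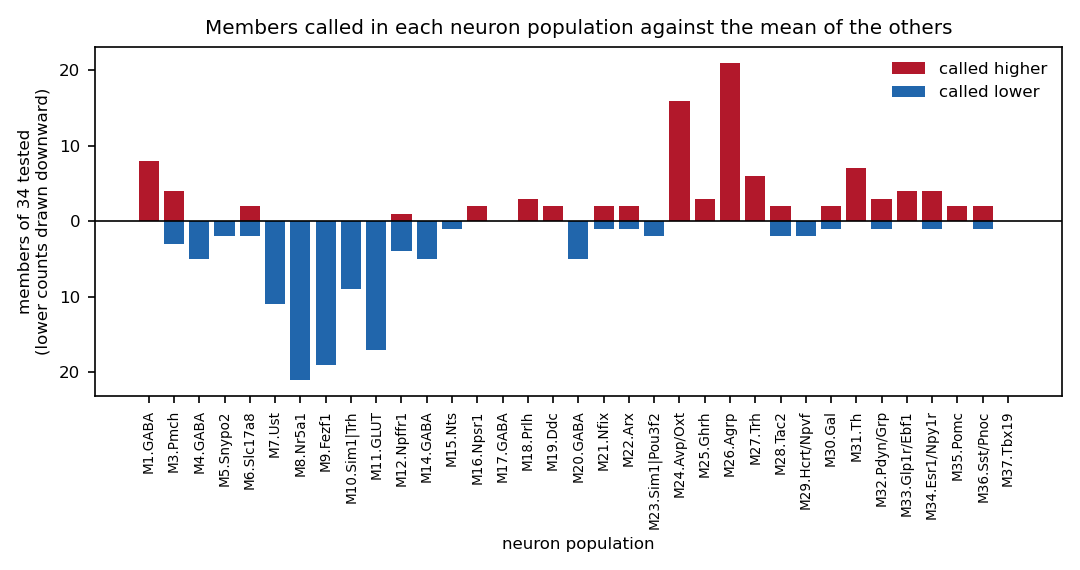
Number of genes, of 34 tested, that were higher (drawn upward) or lower (drawn downward) than the mean of the other populations at an edgeR adjusted p under 0.05, for each of the 35 neuron populations. M26.Agrp (21) and M24.Avp/Oxt (16) stand highest, and M8.Nr5a1 (21), M9.Fezf1 (19) and M11.GLUT (17) reach lowest.

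M24.Avp/Oxt, the neurons that make vasopressin and oxytocin for release from the posterior pituitary, held 153 nuclei. Their 16 higher genes compare with 11.7% of all genes, and they comprised 9 of 14 ER chaperones, 5 of 6 sensors and factors, 1 of 4 degradation genes and 1 of 8 heat shock genes. Ern1 was at 209.6 CPM (Saline run 230), 157.5 (Saline run 232), 149 (Insulin run 230) and 189.6 (Insulin run 232). Eif2ak3 was at 74.0, 85.4, 79.9 and 84.7 CPM in the same order. All 4 libraries were above the mean of every other population for both genes. The next means were 98.7 ± 13.6 CPM for Ern1 in M31.Th, the dopamine neurons, and 39.4 ± 16.1 CPM for Eif2ak3 in M3.Pmch, the melanin-concentrating hormone neurons. The log2 difference was 2.13 for Ern1 (SE 0.12, edgeR adjusted p = 3.9e-33) and 1.81 for Eif2ak3 (SE 0.17, edgeR adjusted p = 8.07e-17).

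Xbp1 in M24.Avp/Oxt was at 78.1 CPM in Saline run 230, 70.2 in Saline run 232, 64.8 in Insulin run 230 and 96.8 in Insulin run 232 (log2 0.98, SE 0.15, edgeR adjusted p = 1.96e-08). Atf4 (log2 0.77) and Atf6 (log2 0.41) were also higher, and Ddit3 did not pass the test (6.67 ± 4.70 CPM, log2 0.60, edgeR adjusted p = 0.363). The folding enzyme P4hb, the founding protein disulfide isomerase, was at 35.6 ± 5.36 CPM (log2 1.06, SE 0.20, edgeR adjusted p = 1.26e-05). Edem1 had 25.3 ± 11.3 CPM (log2 1.22, SE 0.26, edgeR adjusted p = 7.85e-05). Hspa5 itself was not among the called genes. The median log2 difference was 0.87 for the sensors and factors, 0.53 for the ER chaperones and -0.13 for the heat shock genes. Without Insulin run 230, the library with the most nuclei of this population, 9 genes passed the threshold, and without Saline run 232 there were 10. Edem1 missed the threshold without Insulin run 230 (log2 0.66). Bag3, with 10 UMIs in all, passed narrowly (log2 1.69, edgeR adjusted p = 0.0475) and missed the threshold when Saline run 232, Insulin run 230 or Insulin run 232 was left out (log2 1.49, 1.91 and 1.60).

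**Figure D3:**
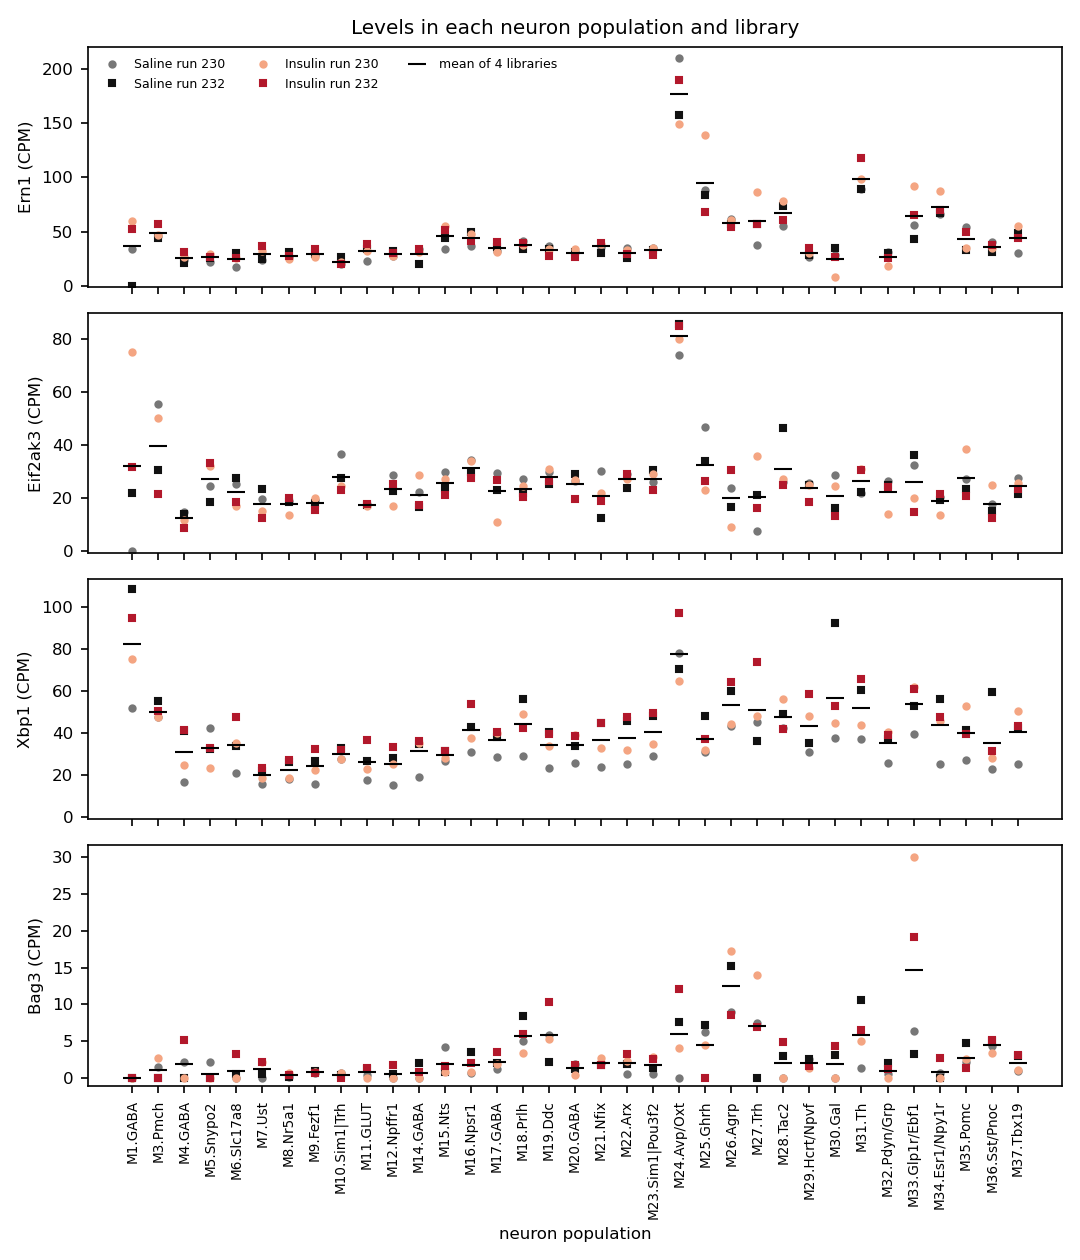
CPM of Ern1, Eif2ak3, Xbp1 and Bag3 (4 panels) in each of the 35 neuron populations, with 1 point per library (circles run 230, squares run 232) and a bar at the mean of 4 libraries. M24.Avp/Oxt is highest in every library for Ern1 (149 to 209.6 CPM), and the Bag3 points of M33.Glp1r/Ebf1 spread from 3.30 to 30.1 CPM.

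Ern1 was graded across further populations. After M31.Th came M25.Ghrh, the growth hormone releasing hormone neurons, at 95.0 ± 30.8 CPM (log2 1.22), then M34.Esr1/Npy1r at 72.6 ± 9.83 (log2 0.74), M28.Tac2 at 67.1 ± 10.8 (log2 0.66) and M33.Glp1r/Ebf1 at 64.0 ± 20.7 (log2 0.63). M31.Th and M25.Ghrh did not differ beyond their spread, nor did the 3 that followed. The lowest level, 22.5 ± 2.83 CPM, was in M10.Sim1|Trh (log2 -0.73). M31.Th had 7 genes higher and none lower, against 13.5% of all genes, and next to Ern1 these included Atf6, Xbp1, Canx and Pdia6. In M3.Pmch 4 of the 34 genes were higher (12.6% of all genes) and 3 lower (9.57%). Of 6 sensors and factors, 3 were higher (Eif2ak3 log2 0.94, Atf4 0.75 and Xbp1 0.61), and of 8 heat shock genes 3 were lower (Hspa8 log2 -1.03, Hsph1 -0.81 and Dnaja1 -0.49). Hspa8 was at 31.6 CPM in Saline run 230, 74.4 in Saline run 232, 53.0 in Insulin run 230 and 86.2 in Insulin run 232, its lowest mean of all populations. Pdia5 was highest in M3.Pmch, at 94.8 ± 26.5 CPM (log2 2.80), and next in M24.Avp/Oxt, at 71.1 ± 11.9 CPM (log2 2.14).

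M26.Agrp, the hunger neurons of the arcuate nucleus, had 610 nuclei. Their 21 higher genes compare with 21.4% of all genes, and they were spread over the groups: 9 of 14 ER chaperones, 4 of 6 sensors and factors, 3 of 4 degradation genes and 5 of 8 heat shock genes. Most differences were small, with log2 values from 0.22 (Manf and Atf6) to 0.85 (Ddit3), and Bag3 was the exception. It was at 9.04 CPM in Saline run 230, 15.3 in Saline run 232, 17.3 in Insulin run 230 and 8.55 in Insulin run 232, from 66 UMIs (log2 2.73, SE 0.31, edgeR adjusted p = 1.23e-13). The mean over all neurons was 2.31 CPM. Hyou1 (23.8 ± 2.61 CPM, log2 0.78), Ddit3 (10.2 ± 3.37 CPM, log2 0.85), Edem1 (19.6 ± 3.96 CPM, log2 0.63) and Dnaja1, a J-domain partner of HSP70 (84.1 ± 16.7 CPM, log2 0.50), followed. Edem1 missed the threshold without Insulin run 232 (log2 0.54). The kinase Eif2ak2, a further trigger of the integrated stress response, was also highest in M26.Agrp, at 21.9 ± 5.26 CPM (log2 2.02). In M3.Pmch it was within that spread, at 18.6 ± 6.15 CPM (log2 2.00). In M35.Pomc, the satiety neurons of the same nucleus, Dnaja1 (log2 0.30) and Hspe1 (log2 0.39) were the 2 of 34 genes that were higher, against 11.5% of all genes. Whether the 2 populations differ from each other was not tested.

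Bag3 was higher in further populations but at low counts. M33.Glp1r/Ebf1 had 6.44 CPM in Saline run 230, 3.30 in Saline run 232, 30.1 in Insulin run 230 and 19.1 in Insulin run 232, from 43 UMIs (log2 3.03, SE 0.37, edgeR adjusted p = 1.91e-11). Both Insulin libraries were above both Saline libraries there, and the test of insulin in this population did not call the gene. M18.Prlh (5.72 ± 2.07 CPM), M31.Th (5.91 ± 3.81 CPM) M27.Trh (7.10 ± 5.72 CPM) and M19.Ddc (log2 1.57) were also higher than the other populations.

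M8.Nr5a1, named for the factor that marks the ventromedial nucleus, had 1954 nuclei and 21 genes lower, against 18.1% of all genes. Of the 14 ER chaperones, 12 were lower. Dnajb9 was at 6.48 CPM in Saline run 230, 13.2 in Saline run 232, 9.51 in Insulin run 230 and 9.46 in Insulin run 232 (log2 -0.74, SE 0.11, edgeR adjusted p = 6.17e-09). Xbp1 was at 18.1, 26.5, 18.6 and 27.2 CPM in the same order (log2 -0.64, SE 0.08, edgeR adjusted p = 5.96e-12). P4hb (log2 -0.60), Pdia6 (log2 -0.54) and Hsp90b1, the HSP90 of the ER (log2 -0.54), came next. The 21 differences ran from -0.23 (Syvn1) to -0.74 (Dnajb9).

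M9.Fezf1 had 19 genes lower against 10.2% of all genes, led by Sdf2l1 (log2 -0.70), Xbp1 (log2 -0.58), Dnajb9 (log2 -0.46), Hsp90b1 (log2 -0.41) and Edem1 (log2 -0.40). Sdf2l1 missed the threshold without Insulin run 230 (log2 -0.63) or Insulin run 232 (log2 -0.57), and Edem1 without Saline run 230, Insulin run 230 or Insulin run 232 (log2 -0.29, -0.33 and -0.37). M11.GLUT had 17 lower against 11.1%, and 11 without Saline run 232. The largest difference was in Ddit3, at 0.371 CPM in Saline run 230, 2.28 in Saline run 232, 0.985 in Insulin run 230 and 0.967 in Insulin run 232, from 12 UMIs (log2 -2.04, SE 0.33, edgeR adjusted p = 1.74e-07). M7.Ust had 11 lower against 7.67%, led by Xbp1 (19.9 ± 3.46 CPM, log2 -0.89, SE 0.14, edgeR adjusted p = 4.62e-08). Leaving out 1 library left 6 to 8 of the 11. It had 7 without Saline run 230 or Insulin run 230, and 6 without Insulin run 232. Syvn1, P4hb, Hyou1 and Herpud1 had log2 differences of -0.52 to -0.60 in this population. Of these, Herpud1 kept its call without each library in turn, and the other 3 missed the threshold without 2 or 3 of the libraries. Among the 8 genes with an ER stress element, 7 were lower in M8.Nr5a1, 6 were higher in M26.Agrp and 4 were higher in M24.Avp/Oxt, with none the other way.

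The sum of the 14 ER chaperones moved with ribosomal protein RNA across populations. Over the 35 populations the Spearman correlation was 0.90, and 0.89 without M1.GABA, while with the sum of 12 secretory granule genes it was 0.12. With median UMIs per nucleus it was -0.63. The heat shock sum gave 0.90 with ribosomal protein RNA and -0.80 with median UMIs. These are descriptions over populations that share 4 libraries, and sums in CPM are shares of the same total. On means of 4 libraries, M24.Avp/Oxt had the most ER chaperone RNA per 100 CPM of ribosomal protein RNA, 48.5 CPM. M3.Pmch followed with 47.0 and M26.Agrp with 44.0, against a median of 40.3, and M8.Nr5a1 had 34.7. The ranking did not hold within run 232. There M24.Avp/Oxt had 950 CPM against 2445 of ribosomal protein RNA in Saline and 867 against 2287 in Insulin. M26.Agrp, with 1004 against 2549 and 957.5 against 2438, had the higher ratio in both. In run 230 M24.Avp/Oxt had 715 against 912.5 CPM in Saline and 841 against 1304 in Insulin. On the means, M1.GABA had the highest sum, 1270 CPM, but the lowest ratio, 27.6. Its 168 nuclei had a median of only 1336.5 UMIs, and it held 211 CPM of Pmch, 174 of Avp, 210 of Oxt (209.7) and 180.0 of Agrp, the highest of any population after the one named for each peptide. It had 8 of the 34 genes higher, against 3.46% of all genes, with Hspa8 first among them (563 ± 174 CPM, log2 1.83). The part of its low depth in these values was not tested.

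**Figure D4:**
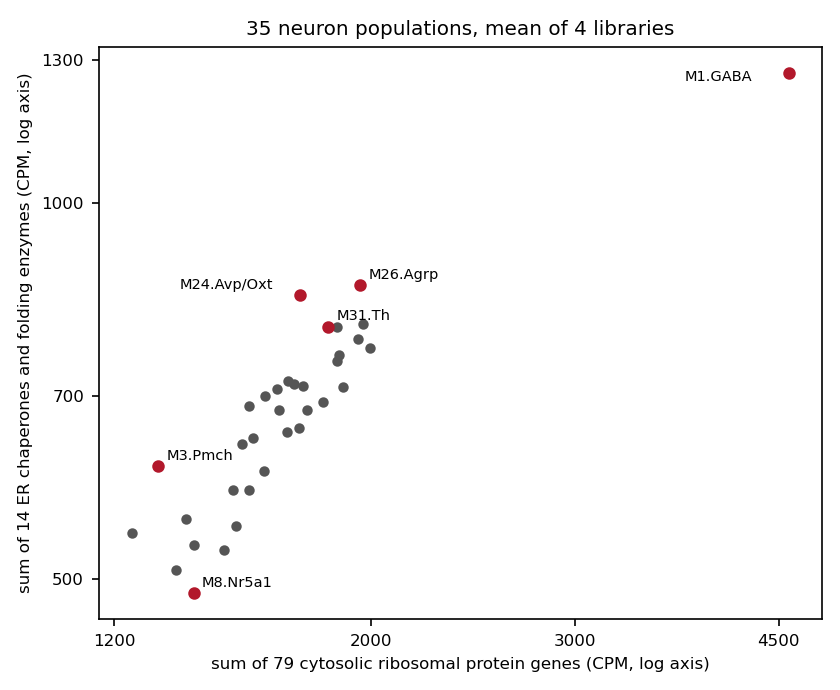
Sum of 14 ER chaperones and folding enzymes against the sum of 79 cytosolic ribosomal protein genes (both in CPM, log axes) for 35 neuron populations, with 1 point per population as the mean of 4 libraries. The points rise together, M1.GABA lies far to the right (4595 CPM), and M24.Avp/Oxt, at 843 against 1737 CPM, has the highest ratio of the 2 means.

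The remaining question was whether insulin changed these genes. In all nuclei the edgeR quasi-likelihood test with Benjamini-Hochberg adjustment called none of the 38 genes and 0% of 21190 genes, and the smallest adjusted p of the 38 was 1. Unadjusted, 88 genes but none of the 38 were under 0.05. In neurons it called none of the 38 and 0% of 20275 genes, with 103 genes but none of the 38 under an unadjusted 0.05. DESeq2 called none of the 38 in either set of nuclei. Because the 2 libraries of a run deviated together, the run was also fitted as a replicate block. With the block none of the 38 was called, with a smallest adjusted p of 0.785 in all nuclei and 0.394 in neurons. At an unadjusted 0.05 with the block, 3 of the 38 passed in all nuclei (1339 of all genes) and 6 in neurons (1862 of all genes). In simulated counts for all nuclei with a run effect, the fit without a block called 0% of 200 genes changed 2-fold. With the block it called 82% of those changed 2-fold and 8.5% of those changed 1.5-fold. The lack of calls without a block therefore does not exclude changes of this size. How often the fit with the block would call such changes in the 38 genes was not tested.

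Most fitted changes were above 0, and more so in run 230. In neurons 33 of 38 genes had a fitted change above 0, with a median of 0.11 against 0.00 over all genes. Within run 230 the median was 0.21, with 33 above 0, and within run 232 it was 0.05, with 23 above 0. The fitted median was -0.03 without Saline run 230 and 0.33 without Saline run 232. The larger shift was thus in the run whose Saline library had the lowest ribosomal protein RNA. In neurons the ribosomal sum was 904 CPM in Saline run 230 and 1282 in Insulin run 230, but 2154 in Saline run 232 and 2033 in Insulin run 232. Its part in the shift was not tested. Hspa8 shows the difference between runs: it was at 67.4 CPM in Saline and 124 in Insulin of run 230, and at 168 in Saline and 145 in Insulin of run 232 (log2 0.88 and -0.21). Hsp90ab1 went from 65.0 to 98.0 CPM in run 230 and from 186 to 182 CPM in run 232.

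Hspa5, Sdf2l1 and Creld2 were among the genes that were higher in Insulin in both runs. Hspa5 in neurons went from 44.3 to 71.3 CPM in run 230 and from 87.2 to 98.5 CPM in run 232 (log2 0.37, SE 0.33, and 0.42 with the block, edgeR adjusted p = 1 and 0.394). Its groups overlapped. Sdf2l1 went from 2.70 to 5.65 and from 5.66 to 7.53 CPM (log2 0.66, SE 0.39), and Creld2, a folding factor of the ER, from 2.30 to 5.40 and from 6.41 to 8.05 CPM (log2 0.63, SE 0.51). Bag3, P4hb and Ern1 were the 3 genes for which both Insulin libraries lay above both Saline libraries in neurons, where 8.74% of all genes did so. Bag3 was at 1.69 and 2.02 CPM in Saline and at 2.47 and 3.06 in Insulin (log2 0.57, SE 0.27). P4hb was at 14.6 and 15.4 against 16.7 and 18.2 CPM (log2 0.21, SE 0.14), and Ern1 at 36.2 and 35.5 against 39.0 and 38.6 CPM (log2 0.11, SE 0.11). All 3 had an edgeR adjusted p of 1. Manf was the only gene with both Insulin libraries below both Saline libraries, at 131 and 116 against 113 and 107 CPM (log2 -0.18, SE 0.13), where 11.6% of all genes were. Xbp1 had a log2 change of 0.26, Eif2ak3 of -0.08, Edem1 of -0.04 and Dnajb1, the stress-inducible partner of HSP70, of -0.04.

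**Figure D5:**
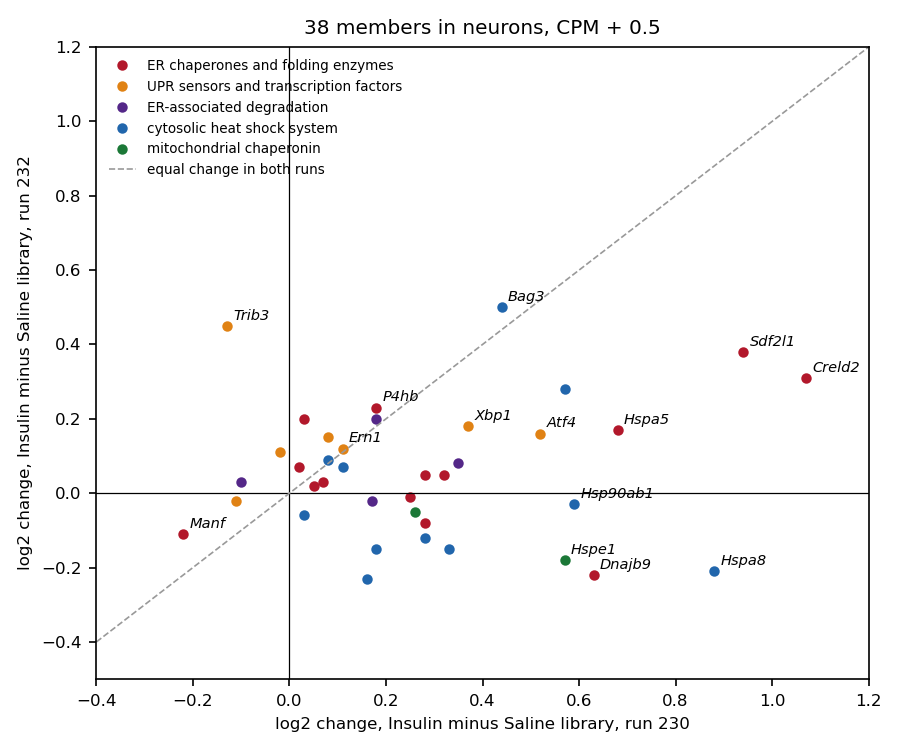
Log2 change from the Saline to the Insulin library (CPM + 0.5) in run 230 (horizontal axis) and run 232 (vertical axis) for the 38 genes in neurons, coloured by role, with a dashed line at equal change. Most points lie right of 0 (33 in run 230) but near 0 on the vertical axis (median 0.05), and Hspa8 lies at 0.88 and -0.21.

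Over all nuclei the picture was the same, with 34 of 38 genes above 0 and a median of 0.11 against 0.01 over all genes (0.25 in run 230 and 0.02 in run 232, 0.00 without Saline run 230 and 0.31 without Saline run 232). Both Insulin libraries lay above both Saline libraries for 6 of the 38 (8.44% of all genes), namely P4hb, Ern1, Ddit3, Hspa1b, Hsph1 and Bag3, and below for Manf and Edem1 (10.2%). The named changes were 0.56 for Sdf2l1, 0.65 for Creld2, 0.30 for Bag3, 0.16 for P4hb, -0.16 for Manf, -0.06 for Eif2ak3, -0.05 for Edem1 and -0.06 for Dnajb1. The effect in neurons against that in other cells was tested as an interaction and called none of 20462 genes, with 310 under an unadjusted 0.05. Ern1 was the 1 gene of the 38 among those (difference 0.32, SE 0.13, unadjusted p = 0.0477 in the edgeR fit, adjusted p = 1).

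In none of the 8 cell types did the edgeR test call a gene of the 38, with or without the block. Medians within run 230 were 0.35 in astrocytes, 0.35 in nuclei labelled Endothelial, 0.55 in OPC and 0.81 in microglia, and within run 232 they were 0.01, 0.09, -0.03 and -0.10. Microglia of run 230 held 71 nuclei in Saline and 134 in Insulin. The fit without Saline run 232 leaves 1 Saline library against 2 Insulin libraries and assumes that it varies as they do. Its calls are therefore not counted here. In astrocytes it gave log2 changes of 0.66 to 1.60 for Hspa8, Hsp90ab1, Hspa5, Dnajb9 and Hsp90b1. These 5 genes were picked by that same fit. Across the 35 populations, none of 991 tests of the 38 genes was called, and 3 genes of all tested were. The median of the 38 was above 0 in 35 populations within run 230 and in 9 within run 232. The fit without Saline run 232 again left 1 Saline library, and its calls over the populations are not counted. With the run as a block, Hspa5 in M8.Nr5a1 was the single call among the 38 genes, in a fit that called 126 of 14447 genes in this population. It was at 29.0 CPM in Saline and 53.8 in Insulin of run 230, and at 63.9 in Saline and 78.6 in Insulin of run 232. Both Insulin libraries were above the Saline library of their run, and the groups overlapped. The log2 change was 0.55 with the block (SE 0.13, edgeR adjusted p = 0.0109) and 0.50 without it (SE 0.34, edgeR adjusted p = 1).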

How the data were processed

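The values are unique molecular identifier (UMI) counts per gene and nucleus, deposited by the authors as 1 matrix with their annotation of cell types and neuron populations. Per the submitters' processing notes, Cell Ranger and the build GRCm38 were used, and the Cell Ranger version is not given in the sources used here. The smallest barcode held 500 UMIs. Of 41156 barcodes, 36523 had an annotation and were analysed, and 4633 had none. The 423 nuclei annotated as doublets and the 1116 unassigned ones entered sums over all nuclei but no cell type, and no doublet caller was run.

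Counts were summed per library within each cell type or population with at least 10 nuclei in every library. CPM are counts per 1000000 UMIs of the same sum. The sums were fitted with edgeR 4.0.16 in R 4.3.3 (TMM, filterByExpr with a minimum count of 10 and a total of 15, quasi-likelihood test) over all genes, with Benjamini-Hochberg adjusted p under 0.05. The SE printed with an edgeR log2 value is its absolute value divided by the square root of the quasi-likelihood F statistic. For each type or population the contrast was its level minus the average of all others, with the library as a block, and for insulin it was Insulin minus Saline without a block. Scripts were tested on simulated data, where the insulin fit without a block recovered 0% of 200 genes changed 1.5-fold or 2-fold. Alternatives were DESeq2 1.42.0, no filter, no library block, the run as a replicate block, at least 50 nuclei, equal weighting of types, leaving out each library, and, added after seeing the data, leaving out nuclei of shared barcode sequence. The set of 79 ribosomal protein genes was also added after seeing the data. Libraries of the same run deviated together (correlation 0.699 in all nuclei and 0.724 in neurons), and the run numbers come from the run given for each nucleus in the deposited annotation.

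The 38 genes and all lists were chosen with earlier results of these data known. Genes were named by a rule: the 4 largest differences per type, the 5 largest in each of the 6 populations with the most calls, the highest and lowest group of each gene, the 4 smallest p-values in each direction for insulin, and up to 3 per further list. Further genes were named after their values were seen. Intervals and limits cover counting error only.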

Additional observations from a re-analysis of the deposited data

Results flagged for a closer look

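Of 62 named levels, 4 had 1 library far from the other 3 by Dixon's criterion, which chance meets in about 1 in 20. Dnajb9 in astrocytes was at 24.02 CPM in Saline run 230, against 42.0, 45.0 and 43.3 CPM in the other libraries. Sdf2l1 in oligodendrocytes was at 8.51 CPM in Saline run 230, against 15.9, 15.7 and 17.2 CPM. Hsp90aa1 in ependymal-type cells was at 359 CPM in Insulin run 230, which held 16 of these nuclei, against 156, 152 and 161 CPM. Sdf2l1 in M11.GLUT was at 2.60 CPM in Saline run 232, against 3.33, 3.45 and 3.39 CPM.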

How the results depend on the processing

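Without the library block, 61 pairs of gene and population were higher and 49 lower (98 and 116 with it). The higher counts were then 7 in astrocytes (13), 9 in oligodendrocytes (15) and 13 in M26.Agrp (21), and the lower counts 11 in M8.Nr5a1 (21), 5 in M9.Fezf1 (19), 7 in M11.GLUT (17) and 5 in M7.Ust (11). With at least 50 nuclei per library M7.Ust had 6, and M24.Avp/Oxt gave no value. Leaving out 1 library gave 11 to 16 calls in M11.GLUT, 9 to 15 in M24.Avp/Oxt and 6 to 8 in M7.Ust. For insulin, the run as a replicate block gave 1 call over the populations (0 without it) and changed no other count of calls. Leaving out 1 library gave 0 to 9 calls over the cell types and 0 to 39 over the populations. The upper end of both ranges came from the fit without Saline run 232, which leaves 1 Saline library. Its calls are not counted as results. With 1 library left out, the median insulin change ran from 0.00 to 0.31 in all nuclei and from -0.03 to 0.33 in neurons. The median was 0.23 with equal weighting of types. In all nuclei the change ran from -0.21 to 0.12 for Eif2ak3, from -0.10 to 0.01 for Edem1 and from -0.27 to 0.12 for Dnajb1, and in neurons from -0.20 to 0.07, from -0.12 to 0.05 and from -0.17 to 0.08. The cause was not tested. Of the values of single named genes, 568 group differences kept their side of the threshold and 43 lost it, and 151 insulin changes kept their direction and 9 reversed. Depth limits the rare types: Hspb1 in OPC had no UMI, and Bag3 in M24.Avp/Oxt had 10.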

Other observations

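Hspb1 RNA lay mostly outside the 8 cell types. The 1539 nuclei annotated as doublets or unassigned held 2.67% of all UMIs but 640 of 934 Hspb1 UMIs (68.5%), where the median share of the 38 genes was 4.45%. These UMIs came mostly from run 230: 312 in Saline run 230 and 316 in Insulin run 230, against 9 in Saline run 232 and 3 in Insulin run 232. Hspa1b came next with 25.0% of its UMIs in these nuclei and Dnajb1 with 11.1%. Run and sex coincide here and cannot be told apart.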
